A study of Homo sapiens with 6 samples.

Results

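S100 proteins are small calcium-binding proteins of vertebrates, and 10 genes of this family were compared between MDA-MB-231 cells given HS3ST2 and cells given a control vector. The genes were S100A2, S100A3, S100A4, S100A6, S100A10, S100A11, S100A13, S100A14, S100A16 and S100P, taken by name. Every probe set (the group of short probes that reads 1 transcript on the array) that GEO's platform annotation assigns to exactly 1 of these symbols was used. This gave 13 of 54613 probe sets and 10 of 19775 genes. S100A6, S100A10 and S100A13 had 2 probe sets each and the other 7 genes had 1.

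MDA-MB-231 is a human breast carcinoma line, long established in culture, whose cells look mesenchymal. Of its 6 arrays, 3 came from cells that received an expression plasmid for HS3ST2, a heparan sulfate 3-O-sulfotransferase, and 3 from cells that received a control vector. No genotype difference, other agent, time after transfection or selection step is given in the sources used here, and all 6 arrays share the same cell line. The design text calls the replicates independent but does not say whether they were separate transfections. The p-values set each difference against the spread between arrays within a group. They cover variation between transfections only if the replicates were separate transfections.

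An S100 monomer carries a pair of EF-hands, helix-loop-helix motifs that hold calcium, and most S100 proteins work as dimers. Calcium binding opens a hydrophobic face through which the dimer grips a target such as an annexin, a myosin chain or a receptor. S100A10 is the exception, since its loops do not bind calcium and it stays in the open form bound to annexin A2. In breast cancer S100A4 is best known as a metastasis-associated protein, S100P and S100A14 are epithelial carcinoma proteins, and S100A2 marks basal epithelium. Most S100 genes lie side by side on chromosome 1, in the region named 1q21.3, whereas S100P lies on chromosome 4.

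S100P and S100A2 were the members that rose, and the stretches around their transcription starts are shown first so that the reader can see what lies there. RefSeq (GRCh38.p14) gives 1 start for S100P and 2 for S100A2. Each window holds 250 bases before and 50 bases from the start and is printed 5′ to 3′ on the gene's strand. Capitals mark the letters TATAAA, the core of a TATA box, and TGANTCA, on either strand. TGANTCA, with N any base, is a loose form of the AP-1 site, so not every match need be one. The window of S100P is at chr4:6693628-6693927 on the + strand, and those of S100A2 are at chr1:153563838-153564137 and chr1:153565795-153566094 on the - strand.
S100P: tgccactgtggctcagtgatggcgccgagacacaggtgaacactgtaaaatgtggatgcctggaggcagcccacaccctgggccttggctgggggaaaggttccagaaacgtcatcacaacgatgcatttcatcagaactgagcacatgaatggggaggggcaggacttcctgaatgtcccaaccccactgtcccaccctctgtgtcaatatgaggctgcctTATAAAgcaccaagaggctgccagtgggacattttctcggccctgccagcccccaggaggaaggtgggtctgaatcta
S100A2, first window: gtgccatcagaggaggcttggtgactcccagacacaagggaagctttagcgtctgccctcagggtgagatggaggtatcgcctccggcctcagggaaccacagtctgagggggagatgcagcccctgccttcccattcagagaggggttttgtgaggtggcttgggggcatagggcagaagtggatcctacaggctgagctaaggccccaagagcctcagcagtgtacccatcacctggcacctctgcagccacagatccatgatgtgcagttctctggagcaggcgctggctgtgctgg
S100A2, second window: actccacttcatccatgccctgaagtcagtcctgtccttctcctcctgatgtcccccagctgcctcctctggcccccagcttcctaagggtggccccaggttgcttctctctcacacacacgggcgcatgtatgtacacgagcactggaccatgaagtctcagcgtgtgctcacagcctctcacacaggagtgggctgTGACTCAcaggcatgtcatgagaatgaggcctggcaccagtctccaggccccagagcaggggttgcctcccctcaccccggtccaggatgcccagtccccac

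In the S100P window TATAAA begins at position -28 relative to the start. In the second S100A2 window the AP-1 letters begin at position -52, and the first S100A2 window holds neither motif. Over the 14 windows listed for the 10 members, TATAAA occurred in 3 (S100A4, S100A13 and S100P) and TGANTCA in 2 (S100A2 and S100A3). Among all 35116 RefSeq windows of this length, 11.5% held TATAAA and 7.71% held TGANTCA. The GC box GGGCGG was found in 6 of the 14 windows, against 45% of all, and the E-box CANNTG in 10, against 68.7%. These matches describe letters in a window and not sites shown to be bound.

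The deposited values are log2 values, and for every probe set the median of its 6 values had been subtracted, so 0 is the middle of the 6 arrays. Levels cannot be read from them, and the order of the S100 genes by abundance, their closeness to background and the identity of the cells by absolute marker level cannot be given. Each change is the mean log2 value of the HS3ST2-labelled arrays less that of the control arrays, given with its standard error from limma and n = 3 per group. A change was called at an adjusted p under 0.05 over all genes.

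The single probe set of HS3ST2 did not check the labels, since its difference was 0.11 ± 0.10 log2 (limma adjusted p 0.523), and directions therefore rest on the labels. The median absolute difference between arrays was 0.1 to 0.122 within a group and 0.16 to 0.193 between groups. The median of 6 ribosomal RNA control probe sets was -0.29 to -0.06 in control arrays and 0.02 to 0.74 in HS3ST2-labelled arrays, highest in replicate 3. A two-sided exact permutation test gave p = 0.1, the lowest value it can reach with 3 arrays in each group, and the part of this signal in the results was not tested. Of 6 leukocyte markers measured, ITGB2 (1.11 log2), LCP1 (0.78) and CORO1A (0.37) rose and none fell. PTPRC (-0.08), CD14 (0.14) and LYZ (0.03) did not pass. The list's mean value was -0.20 to -0.16 in control and 0.17 to 0.25 in HS3ST2-labelled arrays. Of 7 keratinocyte or basal markers SFN rose and KRT15 fell, of 7 fibroblast markers FBLN1 rose, and none of 5 melanocyte or glial markers was called by limma at the adjusted or at an unadjusted p under 0.05. The part of these markers in the S100 results was not tested.

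Of the 10 S100 genes, 2 rose, none fell and 8 did not pass. Over all genes 11.5% were called higher, 13.0% lower and 24.5% in either direction, so 2 of 10 (20%) is close to the background. At an unadjusted limma p under 0.05, 4 members were higher and 3 lower, where 35.7% of all genes passed. Differences were above 0 in 5 members and below 0 in 5, with a median of 0.06 log2 against 0.01 over all genes. The median size without regard to sign was 0.16 in the members and 0.11 over all genes. The groups did not overlap in 6 members, 4 with the HS3ST2-labelled arrays above (19.5% of all genes) and 2 with them below (20.9%), against 40.4% of all genes in either direction.

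**Figure D1:**
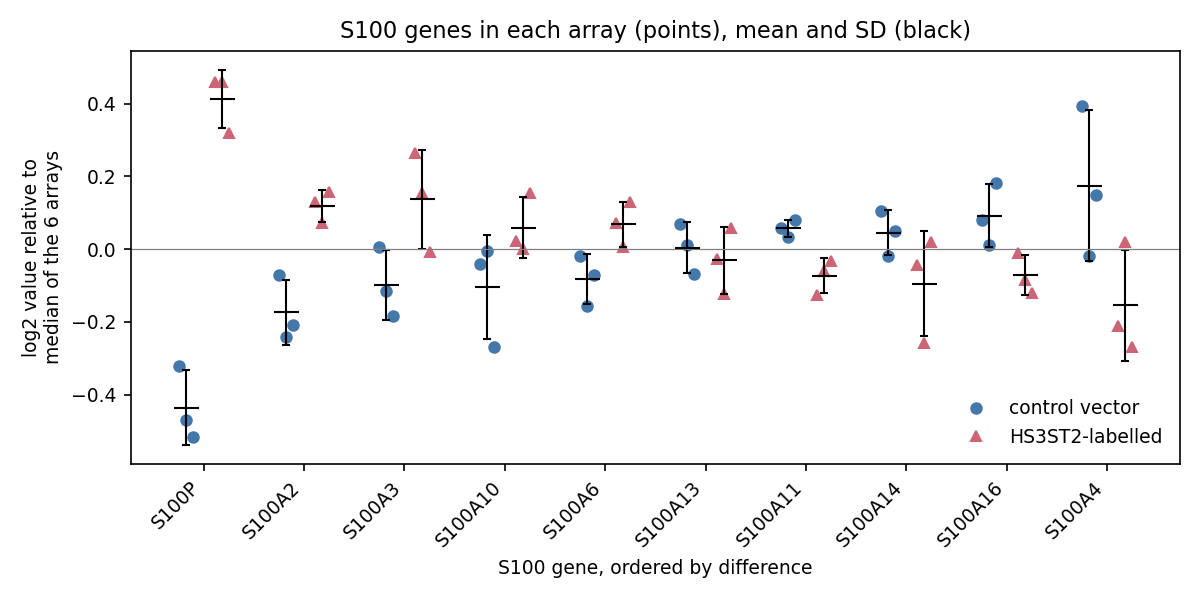
Log2 value of each of the 10 S100 genes in each array (y axis, relative to the median of the 6 arrays), with control arrays as circles, HS3ST2-labelled arrays as triangles, and the mean and SD of 3 arrays in black. S100P stands apart, with control arrays from -0.52 to -0.32 and HS3ST2-labelled arrays from 0.32 to 0.46, while in S100A13 the groups lie across each other.

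S100P showed the largest difference of the members. This protein is made by several carcinomas, acts on ezrin inside cells and on the receptor RAGE outside them. Its values were -0.32, -0.47 and -0.52 in control replicates 1 to 3 and 0.46, 0.46 and 0.32 in HS3ST2-labelled replicates 1 to 3. Every HS3ST2-labelled array lay above every control array, and the gap between the groups was wider than the spread inside either. S100P rose by 0.85 ± 0.07 log2 (SE), a 1.8-fold difference, with a 95% interval from 0.68 to 1.01 and an adjusted p of 1.39e-04 by limma. A difference of this size or more, in either direction, was found in 1.58% of all genes.

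S100A2, a nuclear and cytoplasmic S100 protein of basal epithelial cells, rose less. Control arrays gave -0.07, -0.24 and -0.21, and HS3ST2-labelled arrays gave 0.13, 0.07 and 0.16. The groups did not overlap, and the control array nearest to the other group was replicate 1. The difference was 0.29 ± 0.06 log2 (SE), or 1.22-fold, with an adjusted p of 0.011 by limma over genes and 0.0291 over probe sets. In the fit over probe sets, S100P and S100A2 were the 2 of 13 member probe sets called, both higher, where 7.90% of all 54613 probe sets were called higher, 8.98% lower and 16.9% in either direction. There S100A2 stayed called without control replicate 1 and lost its call on leaving out any of the other 5 arrays (adjusted p 0.0585 to 0.0975). In the fit over genes it was kept in each of these.

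S100A3, a cysteine-rich member found mainly in hair cuticle, lies between S100A4 and S100A2. Its control values were 0.01, -0.12 and -0.18 and its HS3ST2-labelled values 0.26, 0.15 and -0.01. HS3ST2-labelled replicate 3 fell below control replicate 1, so the groups overlapped. The difference of 0.23 ± 0.08 log2 (SE, interval 0.04 to 0.43) did not pass (limma adjusted p 0.0785). Without HS3ST2-labelled replicate 3 it was 0.31 and passed (adjusted p 0.0358). Without any other single array it did not pass (limma adjusted p 0.063 to 0.214).

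S100A4, which binds the heavy chain of non-muscle myosin and is used as a mesenchymal and metastasis marker, had the lowest difference of the 10. Control arrays were at 0.39, -0.02 and 0.15, and HS3ST2-labelled arrays at -0.21, 0.02 and -0.27. The groups overlapped, since control replicate 2 was the lowest control array and HS3ST2-labelled replicate 2 the highest of its group. These were the middle 2 of the 6 values, which the centring puts at equal distances from 0. Their shared number was not taken as a pair. Its control range of 0.41 log2 was the widest of the members. The difference of -0.33 ± 0.12 (SE, interval -0.59 to -0.06) did not pass (limma adjusted p 0.0772). It passed without control replicate 2 (-0.43, limma adjusted p 0.0399) and without HS3ST2-labelled replicate 2 (-0.41, limma adjusted p 0.0482). Leaving out either of these overlapping arrays must by itself widen the difference. Without any other single array it did not pass (-0.34 to -0.22, limma adjusted p 0.136 to 0.201). The single probe set of S100A4 ends in _s_at, a suffix for probes that can read several transcripts.

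**Figure D2:**
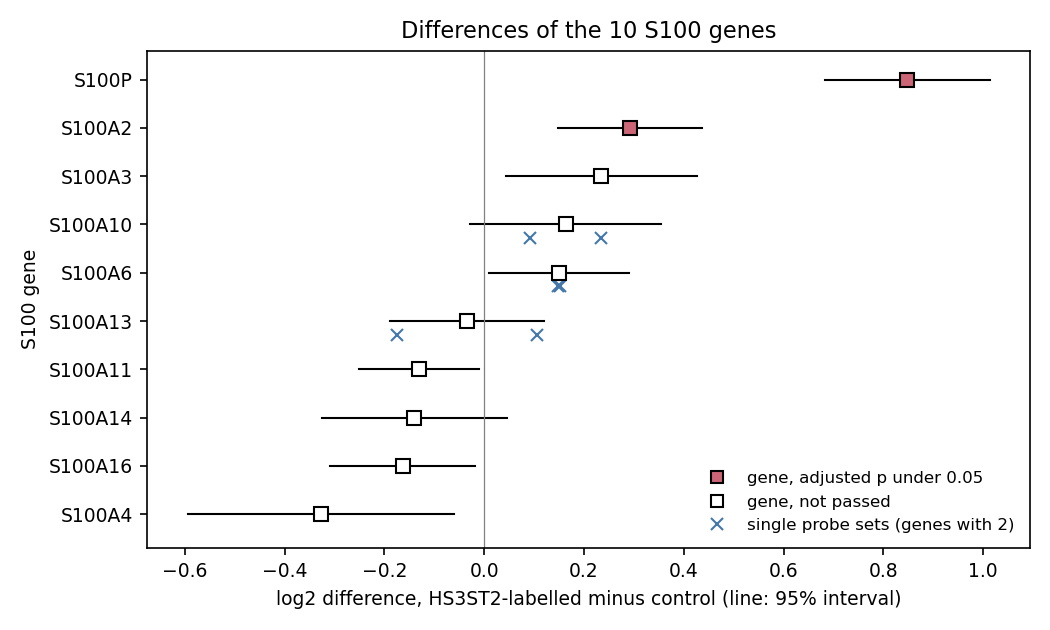
Log2 difference of each S100 gene (squares, HS3ST2-labelled minus control, 3 arrays per group) with its 95% interval, and the single probe sets of genes that have 2 (crosses). S100P (0.85) and S100A2 (0.29) passed, S100A4 (-0.33) lies at the other end with a wide interval, and the probe sets of S100A13 fall on either side of 0.

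The members that bind annexins lay on both sides of 0. S100A10, the light chain of the annexin A2 tetramer at the plasma membrane and a docking site for plasminogen, gave -0.04, -0.004 and -0.27 in control and 0.02, 0.0007 and 0.16 in HS3ST2-labelled arrays. The groups did not overlap by a narrow margin, and control replicate 3 was the low one. The difference was 0.16 ± 0.08 log2 (SE, interval -0.03 to 0.35), which did not pass (limma adjusted p 0.205). Its probe sets gave 0.09 and 0.23, neither called.

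S100A6, or calcyclin, which binds annexins and the calcyclin-binding protein, gave -0.02, -0.16 and -0.07 in control and 0.07, 0.01 and 0.13 in HS3ST2-labelled arrays. All HS3ST2-labelled arrays were above all control arrays. The difference of 0.15 ± 0.06 (SE, interval 0.01 to 0.29) did not pass (limma adjusted p 0.116), and its 2 probe sets both gave 0.15.

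S100A11, a partner of annexin A1, was the tightest member, with control arrays within 0.05 log2 of each other. It gave 0.06, 0.03 and 0.08 in control and -0.13, -0.06 and -0.03 in HS3ST2-labelled arrays. The HS3ST2-labelled arrays were all below the control arrays. The difference was -0.13 ± 0.05 (SE, interval -0.25 to -0.01), which did not pass (limma adjusted p 0.114).

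S100A16 and S100A14 are neighbours on chromosome 1, and both gave differences below 0. S100A16, a widely expressed member, gave 0.08, 0.01 and 0.18 in control and -0.01, -0.08 and -0.12 in HS3ST2-labelled arrays, with no overlap. Its difference was -0.16 ± 0.06 (SE, interval -0.31 to -0.02, limma adjusted p 0.102). S100A14, an epithelial member that can act through RAGE, gave 0.11, -0.02 and 0.05 in control and -0.04, -0.26 and 0.02 in HS3ST2-labelled arrays. These groups overlapped, and HS3ST2-labelled replicate 2 was the low one. The difference of -0.14 ± 0.08 (interval -0.33 to 0.05, limma adjusted p 0.262) was -0.06 without that array, so neither gene passed.

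S100A13 takes part in the release of FGF1 and interleukin 1 alpha, proteins that leave the cell without a signal peptide. It gave 0.07, 0.01 and -0.07 in control and -0.03, -0.12 and 0.06 in HS3ST2-labelled arrays, and the groups overlapped. Its difference of -0.03 ± 0.07 log2 (SE, interval -0.19 to 0.12, limma adjusted p 0.763) hid probe sets that pointed apart, 1 at 0.11 and the other at -0.17, neither called. The sign of the gene's difference turned without HS3ST2-labelled replicate 2 (0.01).

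For the rest of the family, a list of 17 other S100 genes and S100-fused genes had 14 measured, of which 1 rose, 1 fell and 12 did not pass (14.3% called). Their median difference was 0.01 log2, the same as over all genes. S100A5, a member known from olfactory neurons, was the one that rose. Its values of -0.32, -0.31 and -0.40 in control and 0.31, 0.57 and 0.34 in HS3ST2-labelled arrays did not overlap, and it rose by 0.75 ± 0.08 (SE, limma adjusted p 3.73e-04). FLG, filaggrin of the cornified skin layer, which begins with an S100 domain, was the one that fell. It gave 1.15, 1.20 and 0.31 in control and -0.35, -0.31 and -0.56 in HS3ST2-labelled arrays, with control replicate 3 well below the other control arrays. FLG fell by 1.29 ± 0.22 log2 (SE, limma adjusted p 0.0038), and by 1.58 without control replicate 3.

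The inflammatory members S100A8 and S100A9, which pair as calprotectin in myeloid cells, did not pass, at 0.14 ± 0.09 and 0.07 ± 0.06 log2 (SE). S100A7A, a psoriasin relative, gave 0.22 ± 0.07 with a limma adjusted p of 0.054. Its probe sets gave 0.06 and 0.37, and the higher one was called. S100A7 and S100A7A are close copies, so their probes may share signal.

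**Figure D3:**
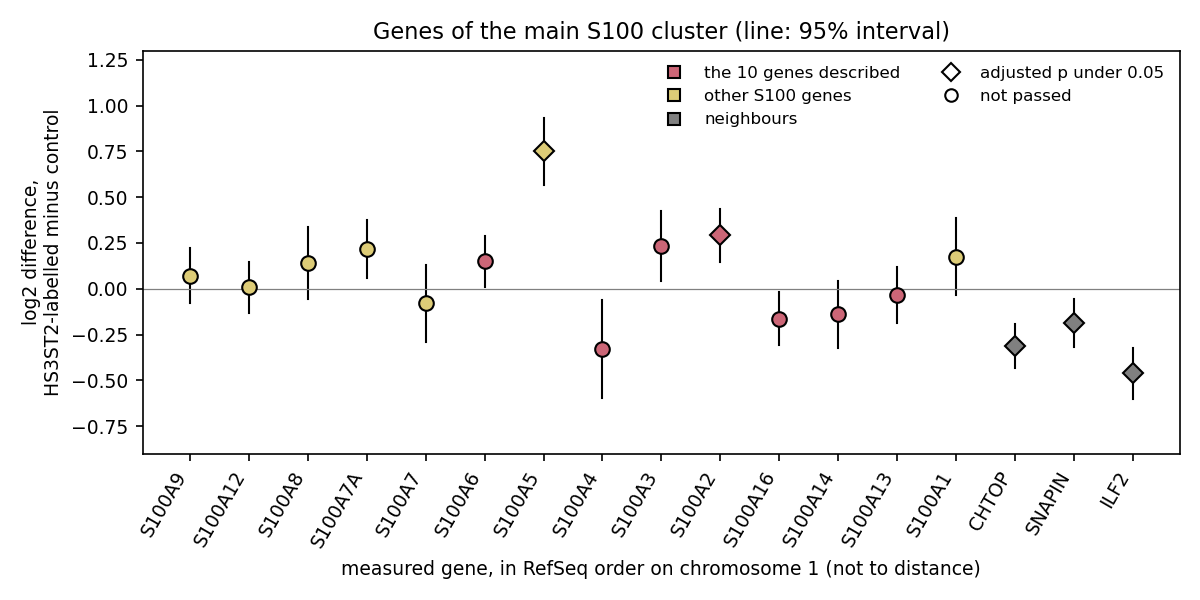
Log2 differences (HS3ST2-labelled minus control, lines for 95% intervals) of measured genes from S100A9 to ILF2, in RefSeq order on chromosome 1 with distances not drawn to scale. S100A5 (0.75) and S100A2 (0.29) were called higher beside S100A4 (-0.33, not passed), and CHTOP, SNAPIN and ILF2 at the right end were called lower.

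Along the cluster on chromosome 1, differences of adjacent genes lay on both sides of 0. In RefSeq order S100A6 was at 0.15, S100A5 at 0.75, S100A4 at -0.33, S100A3 at 0.23 and S100A2 at 0.29, followed by S100A16 at -0.16, S100A14 at -0.14, S100A13 at -0.03 and S100A1 at 0.18. S100A5 and S100A4 are direct neighbours that share a strand, and their RefSeq spans overlap by 65 bases. The value of S100A5 minus that of S100A4 was -0.72, -0.29 and -0.55 in control arrays and 0.52, 0.55 and 0.61 in HS3ST2-labelled arrays. It was higher in every HS3ST2-labelled array, by 1.08 log2 in the mean. The two-sided exact permutation p of 0.1 is the lowest this design can give. This pair was chosen after its values were seen, so the p-value cannot serve as a test of it.

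Of 28 other genes measured between S100A10 and ILF2, most of them genes of the cornified skin envelope, 3 fell and none rose by limma. The other 25 did not pass, with 1 higher at an unadjusted limma p under 0.05. The share called was 10.7%, below the 24.5% of all genes called in either direction, and 13.0% of all genes were called lower. The 3 that fell lie together just past S100A1. CHTOP, a chromatin and mRNA export factor, fell by 0.31 ± 0.05 log2 (SE), SNAPIN, a SNARE-associated protein, by 0.19 ± 0.06 and ILF2, a double-stranded RNA-binding factor, by 0.46 ± 0.06. The 3 probe sets of CHTOP ranged from -0.51 to -0.07. The call of SNAPIN was lost without any 1 array (adjusted p 0.0558 to 0.136). With only probe sets free of the suffixes _x_at and _s_at, 21 of these genes were measured and none was called in either direction. CHTOP and ILF2 have no such probe set and were not among them, so of the calls only that of SNAPIN was lost there.

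Genes for the proteins that S100 dimers bind moved in both directions. Of 33 measured partners and receptors, 7 rose, 10 fell and 16 did not pass, or 51.5% called against 24.5% of all genes. The list was chosen with earlier results of these data known, so the shares cannot be compared as a test. No test of the list as a whole was made. Their median difference was -0.03 log2, and the median size was 0.19. The number that rose was 4 without control replicate 2, control replicate 3, HS3ST2-labelled replicate 1 or HS3ST2-labelled replicate 2, and 3 without HS3ST2-labelled replicate 3. From probe sets free of those suffixes, 27 of these genes were measured, and 6 rose and 3 fell, where 19.5% of all genes measured that way were called. S100PBP and STIP1 have no such probe set and were not among the 27.

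**Figure D4:**
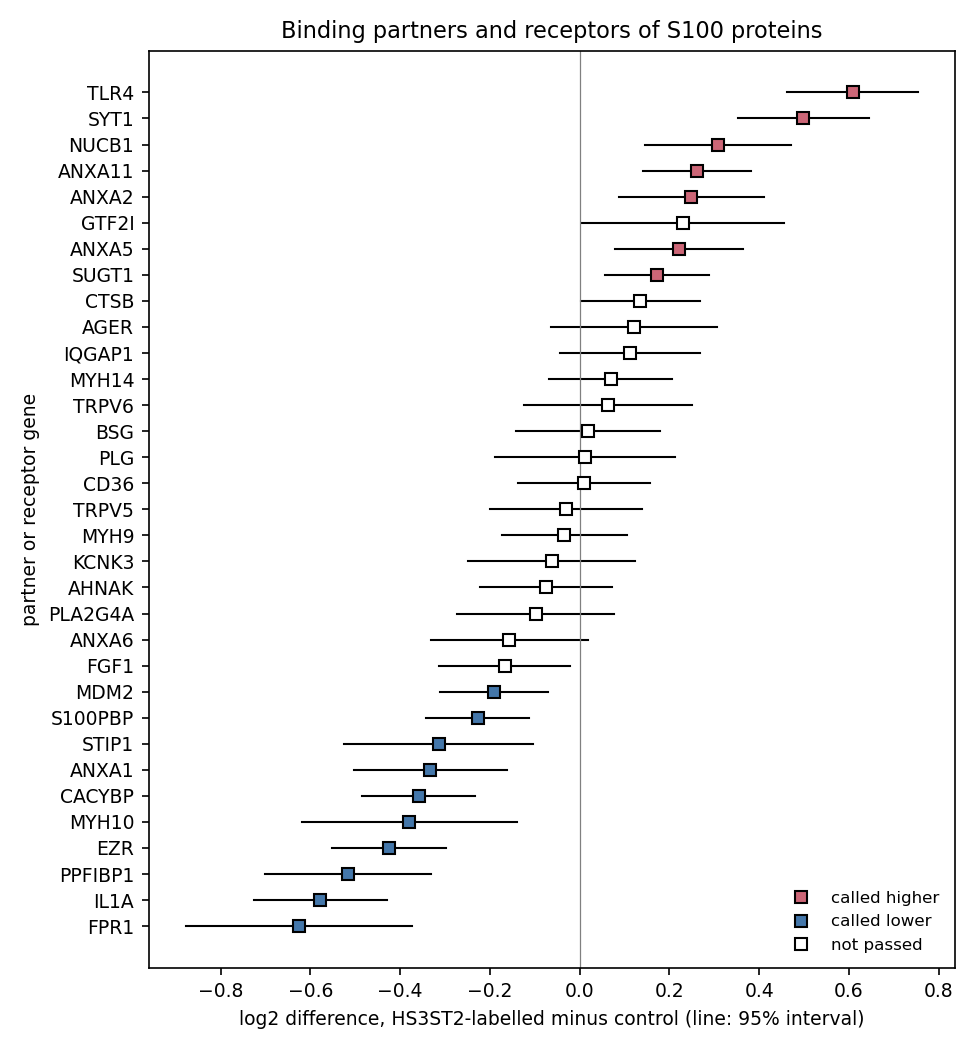
Log2 differences (HS3ST2-labelled minus control, lines for 95% intervals) of 33 partner and receptor genes, coloured by call. TLR4 (0.61) is at the upper end, and FPR1 (-0.63) and IL1A (-0.58) are at the lower end.

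Among annexins, ANXA2, the partner of S100A10, rose by 0.25 ± 0.07 log2 (SE, limma adjusted p 0.0345), with values of -0.21, -0.08 and -0.05 in control and 0.04, 0.15 and 0.22 in HS3ST2-labelled arrays. Its 4 probe sets ranged from 0.08 to 0.71, only 1 was called, and the call of the gene was kept without HS3ST2-labelled replicate 1 and lost without any of the other 5 arrays (adjusted p 0.0519 to 0.108). ANXA11, a partner of S100A6, rose by 0.26 ± 0.05 and ANXA5 by 0.22 ± 0.06. The 3 probe sets of ANXA11 ranged from 0.13 to 0.53, 1 was called, and the gene was at 0.53 from probe sets free of the suffixes _x_at and _s_at. In contrast, ANXA1, the partner of S100A11, fell by 0.33 ± 0.07, with 1 of its 2 probe sets called (-0.47 and -0.20). The call of ANXA5 was lost without any 1 array other than control replicate 1. AHNAK, a giant scaffold bound by the S100A10 and annexin A2 complex, did not pass (-0.08 ± 0.06, interval -0.22 to 0.07).

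For S100A6, CACYBP, the calcyclin-binding protein of a ubiquitin ligase complex, gave 0.14, 0.24 and 0.17 in control and -0.21, -0.17 and -0.14 in HS3ST2-labelled arrays. It fell by 0.36 ± 0.05 log2 (SE, limma adjusted p 0.00229), and 3 of its 4 probe sets were called lower. The one without an _x_at or _s_at ending gave 0.02. SUGT1, a co-chaperone in the same complex, rose by 0.17 ± 0.05, a call lost without any 1 array, and its 5 probe sets ranged from 0.07 to 0.31. STIP1, an Hsp70 and Hsp90 adaptor, fell by 0.31 ± 0.09, a call kept only without HS3ST2-labelled replicate 1 among the left-out arrays. NUCB1, a calcium-binding protein of the Golgi, rose by 0.31 ± 0.07, and its call was lost without HS3ST2-labelled replicate 1 (adjusted p 0.0509) or HS3ST2-labelled replicate 3 (0.0521).

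For S100A4, the partner PPFIBP1, or liprin beta 1, fell by 0.52 ± 0.08 log2 (SE, limma adjusted p 0.00252), and its 5 probe sets ranged from -0.95 to -0.07. MYH10, a non-muscle myosin heavy chain, fell by 0.38 ± 0.10, a call kept only without control replicate 3 or HS3ST2-labelled replicate 3. MYH9, the myosin heavy chain best known to bind S100A4, did not pass (-0.03 ± 0.06, interval -0.17 to 0.11).

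For S100P, the partner EZR, ezrin, which links actin to the membrane, gave 0.17, 0.24 and 0.20 in control and -0.16, -0.28 and -0.22 in HS3ST2-labelled arrays. It fell by 0.42 ± 0.05 log2 (SE, limma adjusted p 0.00104), with 4 of 5 probe sets called lower, in the direction opposite to S100P. The 1 probe set of EZR free of those suffixes gave -0.22 and was not called (adjusted p 0.344). S100PBP, the S100P-binding protein, fell by 0.23 ± 0.05 (adjusted p 0.0124). MDM2, a ubiquitin ligase that some S100 proteins bind, fell by 0.19 ± 0.05, but gave 0.02 from probe sets free of those suffixes and was called only without control replicate 3 among the left-out arrays.

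For S100A13, both partners of the release complex that passed went apart. SYT1, synaptotagmin 1, rose by 0.50 ± 0.06 log2 (SE, limma adjusted p 9.72e-04), with both probe sets called. IL1A, interleukin 1 alpha, fell by 0.58 ± 0.06 (adjusted p 5.04e-04), but not from its probe set free of those suffixes (-0.34, adjusted p 0.0679). FGF1 did not pass (-0.17 ± 0.06, interval -0.31 to -0.02, limma adjusted p 0.096). Its HS3ST2-labelled arrays all lay below its control arrays.

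Among receptors, TLR4, which answers S100A8 and S100A9, gave -0.27, -0.28 and -0.44 in control and 0.28, 0.32 and 0.24 in HS3ST2-labelled arrays. It rose by 0.61 ± 0.06 log2 (SE, limma adjusted p 3.69e-04), and all 4 of its probe sets were called higher, from 0.38 to 0.94. FPR1, a formyl peptide receptor, fell by 0.63 ± 0.11, but its probe sets gave -1.43 and 0.17, and only the first, which ends in _s_at or _x_at, was called. AGER, which encodes RAGE, did not pass (0.12 ± 0.08, interval -0.06 to 0.31), and neither did BSG, basigin, a receptor reported for S100A9 (0.02 ± 0.07, interval -0.14 to 0.18).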

How the data were processed

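RNA from 6 samples of MDA-MB-231 cells was measured on Affymetrix arrays. RMA is named in the submitters' processing notes, and the centring step is not. The deposited log2 values have a median of 0 over the 6 arrays for every probe set (within 1e-05), so the authors' values had been centred on that median, which removes levels but keeps differences. The base 2 of the logarithm is that of RMA and is not stated. Arrays give no counts, and their number limits the precision.

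From these, 62 control probe sets were set aside and 54613 tested. The platform annotation gave 1 symbol for 41091, several for 1801 and none for 11721, and 41037 were matched to a current RefSeq gene by gene number. No probe set named a member together with another gene. Probe sets of a gene were averaged (19775 genes). limma 3.58.1 (R 4.3.3; lmFit, eBayes, no covariate) compared 3 HS3ST2-labelled with 3 control arrays, over genes and over probe sets, with Benjamini-Hochberg adjustment over all features. The probe set fit was tested on simulated arrays with planted differences, for their estimated size and for false calls. Whether a planted difference was called was checked only at the largest size, which exceeds that of any member. The members and lists were chosen with earlier results of these data known. Named genes were all members, called genes of the lists, 7 partners fixed by name, FGF1, and some uncalled S100 genes and markers. CD68, FCGR3A, TP63, S100A7L2, HRNR and TCHHL1 were not matched to a probe set of their own and were not analysed here. Same-numbered replicates did not deviate together in every case (r = 0.12, 0.05 and -0.08), so the numbers were not taken as pairs. Alternatives were a replicate block, each array left out, quantile normalization, median centring, array weights, thresholds of 0.01 and 0.1, no _x_at and _s_at probe sets, the probe set of largest SD, and robust eBayes.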

Additional observations from a re-analysis of the deposited data

How the results depend on the processing

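S100P was called higher in all 15 alternatives (0.81 to 0.91 log2), and S100A2 in 14 of 15 (0.26 to 0.34), with the exception of the adjusted p threshold of 0.01. The other 8 members kept the sign of their difference in every alternative that could be run for them, except S100A13 in 1 of 15. S100A4 had 14, since its only probe set ends in _s_at. With the replicate block, 4302 genes were called in place of 4845, partners gave 5 higher and 7 lower, 3 member genes were called higher, where S100A3 was added, and 1 member probe set, where S100A2 was lost. Of the members, 2 to 3 genes and 1 to 2 probe sets were called higher and 0 to 1 genes lower over the left-out arrays. In those fits 19.1% to 20.3% of all genes were called in either direction. With an adjusted p under 0.01, 1 member gene and 1 member probe set were called higher, and 3 partners were higher and 5 lower. At that threshold 14.4% of all genes were called. With an adjusted p under 0.1, 3 member genes were called higher (S100A3 added) and 1 lower (S100A4), where 31.3% of all genes were called. There 2 other S100 genes and 1 neighbour on 1q21.3 were higher. Among other S100 genes 2 were called higher with quantile normalization and when the most variable probe set stood for a gene, and 1 to 2 over left-out arrays. Among partners 3 to 5 were higher over left-out arrays. Neighbours called higher were 1 with quantile normalization, 1 with median centring and 0 to 1 over left-out arrays. From probe sets that end in neither _x_at nor _s_at, 3 of 27 partners and 0 of 21 neighbours were called lower, with fewer probe sets in each mean. CHTOP, ILF2, STIP1 and S100PBP have no such probe set and could not be called there. CACYBP (0.0205), FPR1 (0.174) and MDM2 (0.0163) turned sign. The cause of the other changes was not tested. The planned filter on dim probe sets needs levels and was not run. The same-number correlation of replicates was under 0.1 in 2 of 3 cases and not every sample correlated best with its own number, so the block is only an alternative.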
